A study of Mus musculus with 20 samples.

Results

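The 65 genes described here encode core proteins of the spliceosome, the serine- and arginine-rich (SR) splicing factors and the heterogeneous nuclear ribonucleoproteins (hnRNPs), measured in the livers of 20 adult male mice. They were taken by symbol: names that begin with Srsf, Srrm, Snrp, Sf3a, Sf3b, Prpf or Hnrnp, with Pnisr added and Snrpn and pseudogene symbols removed. This left 65 of 66 matched symbols, each with 1 probe set, out of 19505 named genes and 22206 transcript clusters on the array. By name they are 10 SR proteins, 5 SR-related proteins, 11 proteins of the small nuclear ribonucleoproteins (snRNPs), 9 subunits of splicing factor 3 (SF3), 12 PRPF proteins and 18 hnRNPs.

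These C57BL/6NCr mice, an inbred strain, formed 4 groups of 5 by the temperature of their dam's surroundings through pregnancy, which was 10, 18, 23 or 30 °C. Dams were acclimated before mating for 3 weeks at 30 °C and for 2 weeks at 18 or 10 °C, and sires spent 3 days at those temperatures. The labels give no acclimation or sire exposure for the 23 °C group, so comparisons with it may also differ in these steps. Every litter went to 23 °C at birth, and the sons ate standard chow there until 4 to 5 months of age, so all groups were adults kept alike and 23 °C is the control. The labels name no litter, dam or batch. Sons of 1 dam may therefore stand in a group, and p-values measure only the spread between these arrays.

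The spliceosome is the RNA and protein machine that removes introns from newly made transcripts. Most of its snRNPs carry a small RNA held in a ring of Sm proteins, SF3 helps the U2 snRNP to bind the intron's branch point, and PRPF proteins build, activate and remodel the complex. SR proteins mostly bind exons and promote the use of nearby splice sites, while hnRNPs coat the transcript and often oppose them. Many SR and hnRNP transcripts also contain cassette exons that send the message to decay, so the level of a transcript need not follow that of its protein. The arrays gave 1 value per transcript cluster, with no view of which exons were joined.

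Upstream sequences are shown for the genes of this set that differed most by unadjusted p between 10 °C and 23 °C or along maternal temperature, and for Srsf5, from RefSeq's windows on mouse build GRCm38.p6. The deposited table names no build, and genes were matched by symbol. Each is the 250 bases before the annotated start, written from the distal end, with matches to the searched motifs in capitals.
Snrpd3, chr10:75517792-75518041, plus strand: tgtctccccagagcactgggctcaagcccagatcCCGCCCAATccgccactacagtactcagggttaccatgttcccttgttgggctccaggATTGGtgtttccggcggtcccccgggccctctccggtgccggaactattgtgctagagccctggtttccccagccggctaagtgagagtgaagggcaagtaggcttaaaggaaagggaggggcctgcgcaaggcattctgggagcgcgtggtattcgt
Prpf31, chr7:3629735-3629984, plus strand: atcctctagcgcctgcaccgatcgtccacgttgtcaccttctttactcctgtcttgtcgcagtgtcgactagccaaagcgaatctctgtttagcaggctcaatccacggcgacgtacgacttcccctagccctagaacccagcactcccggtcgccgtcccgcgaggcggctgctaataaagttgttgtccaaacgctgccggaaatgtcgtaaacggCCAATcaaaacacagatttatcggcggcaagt
Srsf5, chr12:80945249-80945498, plus strand: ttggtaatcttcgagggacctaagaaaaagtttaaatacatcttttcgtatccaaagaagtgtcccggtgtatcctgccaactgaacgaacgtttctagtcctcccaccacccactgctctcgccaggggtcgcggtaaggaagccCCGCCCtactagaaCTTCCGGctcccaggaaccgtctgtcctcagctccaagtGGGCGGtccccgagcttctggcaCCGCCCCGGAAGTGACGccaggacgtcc
Srsf3, chr17:29032410-29032659, plus strand: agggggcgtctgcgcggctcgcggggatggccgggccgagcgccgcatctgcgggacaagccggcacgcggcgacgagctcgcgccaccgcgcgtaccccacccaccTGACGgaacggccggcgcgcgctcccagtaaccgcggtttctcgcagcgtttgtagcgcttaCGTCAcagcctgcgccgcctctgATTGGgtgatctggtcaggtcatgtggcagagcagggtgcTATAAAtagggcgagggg
In Snrpd3 the capitals mark 2 CCAAT matches and 1 GC box (GGGCGG), in Prpf31 1 CCAAT match, in Srsf5 3 GC boxes, 2 ETS cores (CCGGAAG) and 1 CRE core (TGACG), and in Srsf3 1 CCAAT match, 1 TATAAA and 2 CRE cores. The GC box of Snrpd3 overlaps with a CCAAT match, and the GC box nearest the start of Srsf5 with an ETS core.

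RefSeq held windows for 57 of the 65 genes, 75 windows in all, and none was used for Hnrnpll, Hnrnpul2, Pnisr, Prpf18, Sf3b4, Sf3b5, Snrpb and Snrpd1. Their median GC content was 60.8%, against 52.4% over all 32851 windows of the table. Searched on both strands, CCGGAAG stood in 28.0% of the 75 windows and in 6.91% of all windows, TGACG in 41.3% and 17.8%, and GGGCGG in 61.3% and 32.7%. CCAAT stood in 45.3% and 33.8%, CACGTG in 9.33% and 6.02%, GAANNTTC in 9.33% and 6.69%, and TATAAA in 6.67% and 12.4%. These matches describe the letters of the windows and no binding was measured.

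All 20 arrays carried the hepatocyte profile that the labels imply, with 7 of 7 hepatocyte markers above the negative control rows. All measured markers of T and NK cells (6), B cells (3) and neutrophils (4) lay below the highest mean of those rows, which ranged from 4.40 to 4.75 on the log2 scale over the arrays. The summed level of the 2 measured erythroid markers, Alas2 and Slc4a1, was 10.96 to 11.44 in 10 °C arrays and 11.62 to 12.08 in 23 °C arrays, with no overlap, and 11.05 to 11.91 and 11.42 to 12.07 in 18 °C and 30 °C arrays. The 7 measured Kupffer cell and macrophage markers summed to 10.67 to 11.29 in 10 °C, 10.66 to 11.07 in 18 °C, 10.10 to 11.03 in 23 °C and 10.06 to 11.02 in 30 °C arrays, with means of 10.91, 10.84, 10.58 and 10.49. Of these 7, 1 had an unadjusted limma p under 0.05 between 10 °C and 23 °C, where 11.6% of all clusters did. Between 18 °C and 23 °C 2 of the 7 did, against 9.25% of all clusters. The part of these markers in the splicing gene values was not tested. Sinusoidal endothelial markers (7) summed to 12.17 to 12.69 and stellate cell markers (7) to 14.45 to 14.99 over all arrays, and 3 of 4 measured cholangiocyte markers lay below the negative control rows. Background control rows averaged 3.71 ± 0.02 (SD, n = 5) in 10 °C arrays, 3.71 ± 0.04 in 18 °C, 3.65 ± 0.02 in 23 °C and 3.66 ± 0.06 in 30 °C arrays. They ran from 3.682 to 3.724 in 10 °C and from 3.628 to 3.679 in 23 °C arrays, with no overlap. The negative control rows went the other way, with means of 4.53 in 10 °C and 4.63 in 23 °C arrays. In whole liver, fewer cells of a type and less RNA per cell cannot be told apart.

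The 65 probe sets had mean log2 values from 3.01 to 17.30. Hnrnpk, an RNA-binding protein that prefers stretches of C, gave 17.30, Hnrnpa2b1 15.90, the nuclear matrix protein Srrm2 14.82 and Hnrnpu, a nuclear scaffold protein, 14.20. These are probe set signals, which differ in probe affinity, so they do not rank the genes by transcript number. At the dim end, Srsf12 (3.01) and Srrm4 (3.67), a neuronal splicing activator, had means below 3.90, the 95th percentile of 1091 olfactory receptor genes, and Prpf40b (4.10), Hnrnph3 (4.51) and Srrm3 (4.70) lay below the highest negative control mean. These 5 are not above background, and Snrpf (4.81) and Prpf4 (4.86) are close to it, so the others number 60.

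No gene of the 65 passed limma's test after Benjamini-Hochberg adjustment over the 22206 clusters in any of the 6 pairwise comparisons, in the F-test over the 4 groups or in the slope on maternal temperature. Across all clusters 2 passed between 10 °C and 23 °C (0.00901%) and 0 in each of the other tests (0%). At an unadjusted p under 0.05 stood 13 of the 65 between 10 °C and 23 °C (20%), where all clusters gave 11.6%. Of these 5 were higher and 8 lower in 10 °C offspring, where 5.73% of all clusters were higher and 5.91% lower. With the background control level as a covariate the 13 became 6 (9.23%), where 5.59% of all clusters stood in the same fit. That level did not overlap between 10 °C and 23 °C arrays. Such fits, here and for single genes below, therefore cannot fully separate maternal temperature from the background level. Between 18 °C and 23 °C the count was 8 against a background of 9.25%, with 1 higher (background 4.36%) and 7 lower (background 4.89%). Pnisr, put on the list with its result in these data known, counts among the 13 and the 8. Between 30 °C and 23 °C it was 3 against 4.84%, with 2 higher (background 2.21%) and 1 lower (background 2.63%). The shares for 18 °C and 30 °C, at 12.3% and 4.62%, are near those of all clusters.

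The control samples are common to those 3 comparisons, so their values are not independent of each other. Between 10 °C and 30 °C 6 genes had an unadjusted p under 0.05 (background 6.76%), 2 higher (background 3.63%) and 4 lower in 10 °C offspring (background 3.13%). Between 18 °C and 30 °C there were 9 (background 8.21%), 0 higher (background 4.21%) and 9 lower in 18 °C offspring (background 4%). Between 10 °C and 18 °C there were 7 (background 8.1%), 6 higher (background 4.31%) and 1 lower in 10 °C offspring (background 3.79%). Pnisr is again among the 9 and the 7. The median log2 difference of the 65 genes from 23 °C offspring was -0.04 in 10 °C, -0.07 in 18 °C and 0.02 in 30 °C offspring, where all clusters had 0.002, -0.002 and -0.006. Without 23 °C animal 17 the 10 °C median was 0.02, and without 30 °C animal 5 the 30 °C median was -0.001. In 18 °C offspring 45 of the 65 means were lower than in 23 °C offspring and 46 lower than in 30 °C offspring. Of all clusters 50.4% and 49.4% were lower in these comparisons. Over the 6 comparisons that share ran from 48.9% to 51.3%, and it is the background for the counts of higher and lower means below. The median over the 65 genes of each array's deviation lay between -0.101 and -0.0134 in 18 °C arrays, between -0.00683 and 0.0580 in 23 °C and between -0.0217 and 0.0738 in 10 °C arrays. The 18 °C and 23 °C arrays thus did not overlap, by a narrow margin, and how often other sets of genes do so was not tested. In 30 °C arrays it ran from -0.0734 in animal 4 to 0.124 in animal 5, a wider range than in the other groups.

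**Figure D1:**
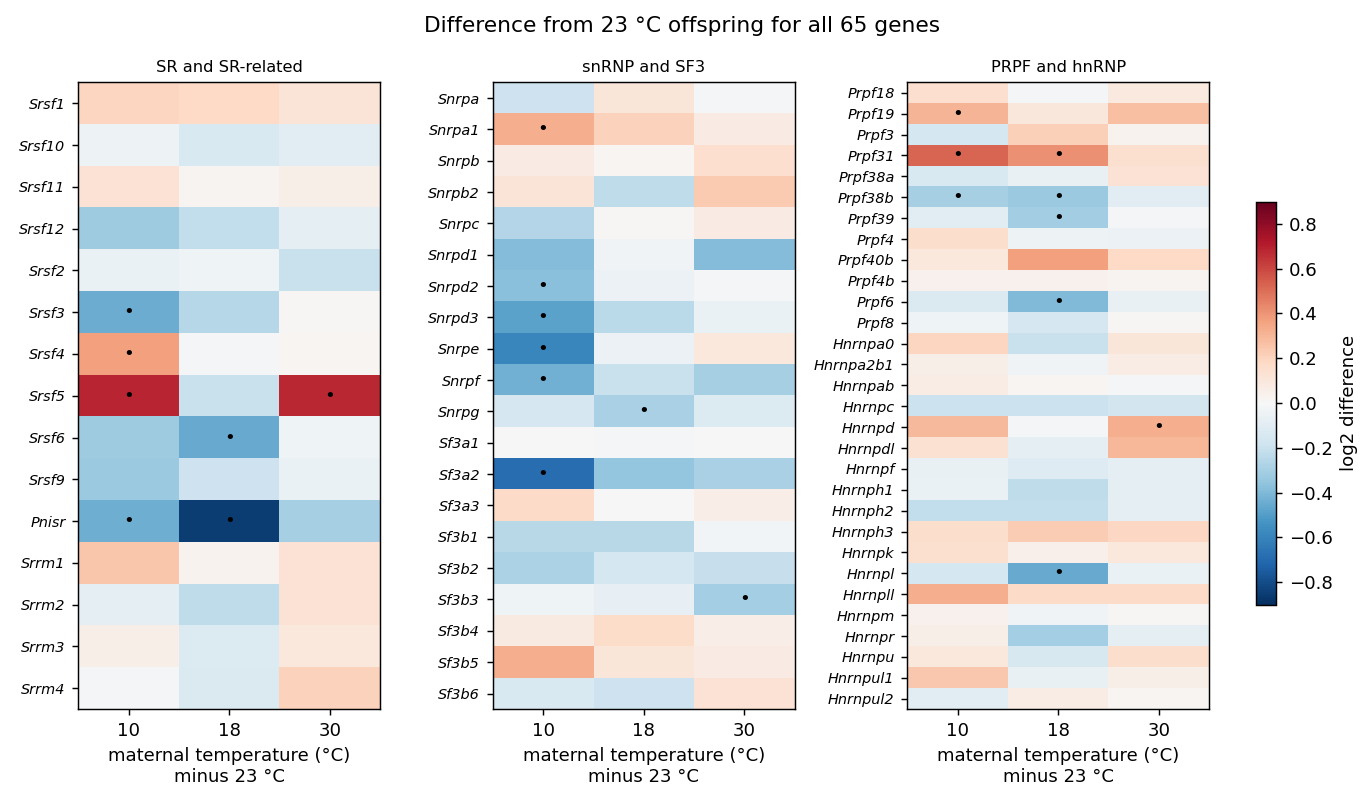
Log2 difference of each of the 65 genes between 10, 18 or 30 °C offspring and 23 °C offspring (means of 5 arrays each; red is higher, blue is lower than 23 °C), with a dot where the unadjusted limma p is under 0.05. Dots mark 13 genes at 10 °C, 8 at 18 °C and 3 at 30 °C, and none of them passed after adjustment.

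**Figure D2:**
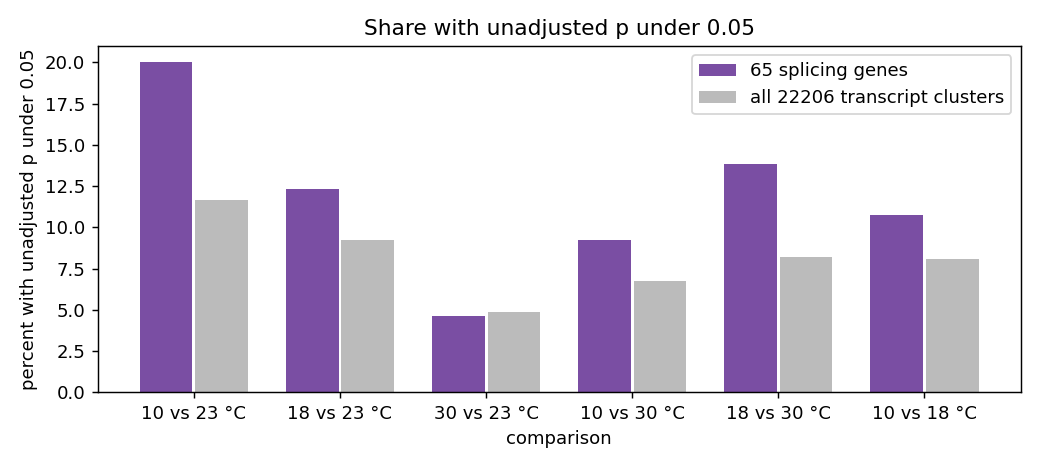
Percent of the 65 splicing genes (purple) and of all 22206 transcript clusters (grey) with an unadjusted limma p under 0.05 in each of the 6 comparisons. The widest gap is between 10 °C and 23 °C offspring, at 20% against 11.6%.

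Among the SR proteins, Srsf5, which promotes the inclusion of exons, had the widest differences. Its values were 12.38, 12.94, 12.80, 12.85 and 12.62 in 10 °C offspring and 12.85, 12.76, 12.05, 12.81 and 13.07 in 30 °C offspring. They were 11.82, 11.63, 11.84, 11.31 and 12.55 in 18 °C offspring and 11.63, 11.32, 12.26, 12.17 and 12.78 in 23 °C offspring. The 10 °C and 30 °C arrays were mostly high and the 18 °C and 23 °C arrays mostly low, but each pair of groups overlapped, through 18 °C animal 7, 23 °C animal 23 and 30 °C animal 6. The log2 difference was 0.69 ± 0.25 (SE, n = 5 per group) between 10 °C and 23 °C (1.61-fold, limma adjusted p = 0.280), 0.68 ± 0.25 between 30 °C and 23 °C (adjusted p = 0.978) and 0.89 ± 0.25 between 10 °C and 18 °C (adjusted p = 0.428). Between 18 °C and 30 °C it was -0.88 ± 0.25 (limma adjusted p = 0.365). With the background control level as a covariate the 10 °C difference from 23 °C was 0.43, with an unadjusted limma p of 0.141.

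Srsf3, the smallest SR protein, which also acts in export of messenger RNA, gave 8.07, 8.80, 8.11, 8.24 and 8.49 in 10 °C offspring, against 8.79, 8.67, 8.80, 9.07 and 8.62 in 23 °C offspring. All of these 10 °C arrays but that of animal 4 lay below all 23 °C arrays. The difference was -0.44 ± 0.18 (SE, limma adjusted p = 0.348), and -0.45 ± 0.18 against 30 °C offspring (adjusted p = 0.691). Srsf4 differed in the other direction, at 10.10 ± 0.21 (SD, n = 5) in 10 °C and 9.73 ± 0.31 in 23 °C offspring, a difference of 0.37 ± 0.15 (SE, limma adjusted p = 0.357). Srsf6, a close relative of Srsf4, was at 7.63 ± 0.07 (SD) in 18 °C and 8.09 ± 0.37 in 23 °C offspring (difference -0.46 ± 0.20, SE, limma adjusted p = 0.495). In 18 °C offspring 8 of the 10 SR means were below those of 23 °C, with a median of -0.16, and 1 of the 10 had an unadjusted p under 0.05 (10%, background 9.25%). In 10 °C offspring 4 were higher and 6 lower, with a median of -0.05, and 3 of the 10 had an unadjusted p under 0.05 (30%, background 11.6%).

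Pnisr, an SR-related protein of the nucleus that the selection names outright, had the smallest p of the 65. This gene was put on the list with its result in these data known, so its values are given as a description. It gave 7.80, 7.79, 7.66, 7.44 and 7.66 in 18 °C offspring, and 7.95, 7.91, 8.41, 8.13 and 8.05 in 10 °C offspring. In 23 °C offspring it gave 8.64, 8.25, 8.76, 8.79 and 8.19, and in 30 °C offspring 8.31, 7.96, 8.16, 8.32 and 8.39. All 5 of the 18 °C arrays lay below each of the other 15 arrays. Of all clusters, 12 of 22206 (0.054%) set the 18 °C arrays apart from the rest in this way, higher or lower. Because Pnisr was listed with its result known, this share does not measure how unusual its pattern is. The difference from 23 °C offspring was -0.86 ± 0.15 (SE, 1.81-fold, limma adjusted p = 0.0551). From 30 °C offspring it was -0.56 ± 0.15 (limma adjusted p = 0.352), and the 4-group F-test gave an adjusted p of 0.178. The adjusted p of the comparison with 23 °C lay on either side of 0.05 over 30 alternative settings, under it in 5 and from 0.0361 to 0.999 over all. The highest came from the fit with animal number as a block. The difference itself stayed between -0.94 and -0.79.

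Pnisr was intermediate in 10 °C offspring, which stood 0.42 ± 0.15 above 18 °C (SE, limma adjusted p = 0.501, no overlap) and -0.44 ± 0.15 from 23 °C offspring (adjusted p = 0.242, with overlap). The other SR-related genes are the Srrm genes, of which Srrm1 and Srrm2 are coactivators that work with SR proteins at exons. All 5 SR-related means were lower in 18 °C than in 30 °C offspring, with a median of -0.34. Srrm2 gave 14.63 ± 0.20 (SD, n = 5) and 14.99 ± 0.15 there, a difference of -0.36 ± 0.14 (SE, limma adjusted p = 0.525). Srrm3 and Srrm4 count among these 5 and are not above background.

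**Figure D3:**
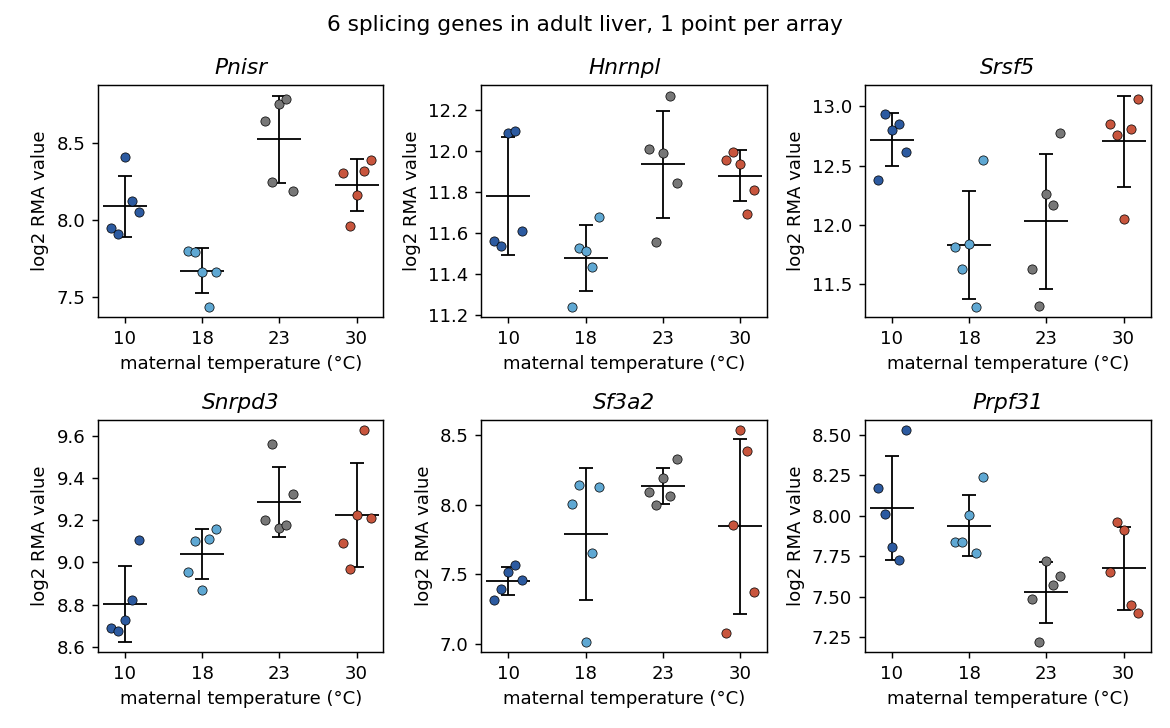
Log2 values of Pnisr, Hnrnpl, Srsf5, Snrpd3, Sf3a2 and Prpf31 by maternal temperature, 1 point per array, with the mean as a line and the SD as bars (n = 5 per group); each panel has its own scale. The 18 °C arrays for Pnisr lie below all others, and the 10 °C and 23 °C arrays do not overlap for Snrpd3, Sf3a2 and, by a narrow margin, Prpf31.

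The snRNP genes divide into the Sm ring (Snrpb, Snrpd1, Snrpd2, Snrpd3, Snrpe, Snrpf and Snrpg), which all major snRNPs but U6 carry, and Snrpa, Snrpc, Snrpa1 and Snrpb2, which belong to U1 or U2 alone. This division was made after the values were seen, so it is a description. In 10 °C offspring 6 of the 7 Sm ring means were below those of 23 °C offspring, with a median log2 difference of -0.39 where all clusters had 0.002. Of these, 4 had an unadjusted p under 0.05, all lower, and the background for lower clusters is 5.91%. The median over the ring in each array lay between -0.27 and -0.06 in 10 °C arrays and between 0.06 and 0.23 in 23 °C arrays, with no overlap. It was -0.19 to 0.07 in 18 °C and -0.12 to 0.23 in 30 °C arrays, which overlap with both. The summed erythroid markers and the background control rows also differed between 10 °C and 23 °C arrays, and the part of the erythroid markers was not tested, while fits with the background level as a covariate are given for single genes.

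Snrpd3, a core ring protein, gave 8.69, 8.68, 8.73, 8.82 and 9.11 in 10 °C offspring and 9.20, 9.56, 9.16, 9.18 and 9.32 in 23 °C offspring. All 10 °C arrays lay below all 23 °C arrays, although animal 8 came close. The difference was -0.48 ± 0.14 (SE, 1.40-fold, limma adjusted p = 0.184). With the background control level as a covariate it was -0.44, with an unadjusted limma p of 0.0130 (adjusted p = 0.865). In 18 °C offspring Snrpd3 gave 8.96, 9.10, 8.87, 9.11 and 9.16, each below the lowest 23 °C value, though animal 7 only by less than the printed digits (difference -0.25 ± 0.14, SE, limma adjusted p = 0.603). In 30 °C offspring it was 9.22 ± 0.25 (SD, n = 5), from which 10 °C offspring differed by -0.42 ± 0.14 (SE, limma adjusted p = 0.662).

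Snrpd2, the partner of Snrpd1 in the ring, gave 10.80, 10.64, 11.03, 10.52 and 10.89 in 10 °C and 10.95, 11.24, 11.33, 11.05 and 11.20 in 23 °C offspring. The groups overlapped only through 10 °C animal 5 (difference -0.37 ± 0.14, SE, limma adjusted p = 0.294). Snrpe gave 8.69, 8.90, 8.72, 8.29 and 7.29 in 10 °C and 9.35, 9.15, 8.69, 8.67 and 8.94 in 23 °C offspring. Animal 8 of the 10 °C group was far below the rest for Snrpe. The difference was -0.58 ± 0.26 (SE, limma adjusted p = 0.391), and from 30 °C offspring -0.68 ± 0.26 (adjusted p = 0.683). Without that animal they were -0.31 and -0.41, and the first then had an unadjusted limma p of 0.174. Snrpf differed from 23 °C by -0.43 ± 0.15 (SE, limma adjusted p = 0.258) at levels close to background.

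The remaining ring genes showed other patterns. Snrpg was at 8.28 ± 0.09 (SD, n = 5) in 10 °C, 8.14 ± 0.08 in 18 °C, 8.43 ± 0.10 in 23 °C and 8.31 ± 0.15 in 30 °C offspring. Its lowest group was thus 18 °C, where the values 8.003, 8.16, 8.16, 8.21 and 8.16 all lay below the 23 °C values 8.30, 8.51, 8.47, 8.35 and 8.52 (difference -0.29 ± 0.11, SE, limma adjusted p = 0.441). Snrpd1 ranged widely, from 4.82 to 6.50 in 30 °C offspring alone, and Snrpb was at 8.62 ± 0.21 (SD) in 10 °C and 8.55 ± 0.19 in 23 °C offspring.

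**Figure D4:**
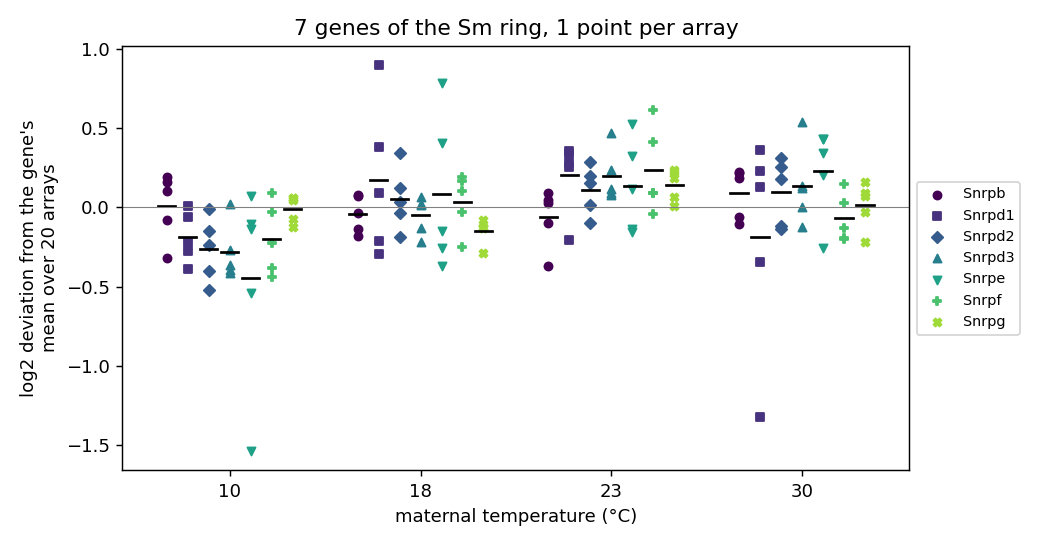
Log2 deviation of each Sm ring gene from its own mean over the 20 arrays, by maternal temperature; each point is 1 array, symbols mark the gene and short lines the mean of 5 arrays. Means of 6 of the 7 genes are lower at 10 °C than at 23 °C, and single arrays stand far off for Snrpe at 10 °C (7.29) and Snrpd1 at 30 °C (4.82).

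Snrpa1, a protein of the U2 snRNP, ran opposite to the ring. It gave 9.03, 9.04, 8.93, 8.88 and 9.01 in 10 °C and 8.80, 8.76, 8.58, 8.59 and 8.53 in 23 °C offspring, and the groups did not overlap. The difference was 0.33 ± 0.13 (SE, limma adjusted p = 0.344). With the background control level as a covariate it was 0.22, with an unadjusted limma p of 0.162. Snrpb2, its partner on U2, was at 7.63 ± 0.26 (SD, n = 5) in 18 °C and 8.09 ± 0.28 in 30 °C offspring (difference -0.46 ± 0.18, SE, limma adjusted p = 0.515). In all, 4 of the 65 genes had arrays that did not overlap between 10 °C and 23 °C (6.15%, background 2.45%). They were Prpf31 (by a narrow margin) and Snrpa1, higher in 10 °C, and Snrpd3 and Sf3a2, lower. Between 18 °C and 23 °C these were also 4 (background 1.81%), with Prpf31 higher and Pnisr, Snrpg and Snrpd3 lower in 18 °C, and between 30 °C and 23 °C 0 (background 0.752%). Among the other groups, 0 genes did not overlap between 10 °C and 30 °C (background 0.982%), 2 between 18 °C and 30 °C (Pnisr and Hnrnpl, background 1.41%) and 1 between 10 °C and 18 °C (Pnisr, background 1.42%). Pnisr, listed with its result known, adds to each of these 18 °C tallies, so their distance from the background is partly set by the selection.

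Of the SF3 genes, Sf3a2, a subunit of SF3a in the mature U2 snRNP, gave 7.31, 7.40, 7.52, 7.57 and 7.46 in 10 °C offspring and 8.09, 7.998, 8.19, 8.06 and 8.33 in 23 °C offspring. These arrays did not overlap, and both groups were narrow. In 18 °C offspring it gave 8.002, 8.14, 7.02, 7.65 and 8.13, and in 30 °C offspring 7.08, 7.85, 8.53, 8.38 and 7.37, so those groups spanned the range of the others. The difference between 10 °C and 23 °C was -0.68 ± 0.23 (SE, 1.61-fold, limma adjusted p = 0.257). With the background control level as a covariate it was -0.33, with an unadjusted limma p of 0.192.

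Sf3b1, the large subunit that clasps the branch point and is recurrently mutated in blood cancers, was at 10.39 ± 0.28 (SD, n = 5) in 10 °C, 10.39 ± 0.14 in 18 °C, 10.64 ± 0.15 in 23 °C and 10.62 ± 0.20 in 30 °C offspring. None of its comparisons had an unadjusted limma p under 0.05. Sf3b3 was at 10.02 ± 0.17 (SD) in 30 °C and 10.32 ± 0.19 in 23 °C offspring, a difference of -0.31 ± 0.14 (SE, limma adjusted p = 0.978). The median over the 9 SF3 genes was -0.04 at 10 °C, -0.08 at 18 °C and -0.0004 at 30 °C relative to 23 °C.

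Among the PRPF genes, Prpf31, which holds the U4 and U6 snRNPs to U5 and is a cause of retinitis pigmentosa when mutated, gave 8.17, 8.01, 7.81, 7.73 and 8.53 in 10 °C offspring. In 18 °C offspring it gave 7.84, 7.84, 8.004, 7.77 and 8.24, and in 23 °C offspring 7.49, 7.22, 7.72, 7.57 and 7.63. All arrays of the colder groups lay above all 23 °C arrays. For 10 °C the margin was narrow, with 7.726 in animal 6 against 7.721 in 23 °C animal 15. The 30 °C arrays, at 7.65, 7.96, 7.91, 7.45 and 7.40, overlapped with each group. The log2 difference from 23 °C was 0.52 ± 0.16 (SE, 1.43-fold, limma adjusted p = 0.214) for 10 °C and 0.41 ± 0.16 (adjusted p = 0.470) for 18 °C offspring. For 10 °C it was also 0.52 with the background control level as a covariate, with an unadjusted limma p of 0.0149 (adjusted p = 0.869). Without animal 8 the 10 °C difference was 0.40.

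Prpf38b, a B complex protein, was at 11.80 ± 0.11 (SD, n = 5) in 10 °C and 11.76 ± 0.10 in 18 °C offspring against 12.09 ± 0.15 in 23 °C offspring. The differences were -0.30 ± 0.12 (SE, limma adjusted p = 0.358) and -0.33 ± 0.12 (adjusted p = 0.440). Prpf19, a ubiquitin ligase of the activated spliceosome, differed by 0.31 ± 0.14 (SE, limma adjusted p = 0.402) between 10 °C and 23 °C. Prpf6, which bridges the tri-snRNP, differed by -0.39 ± 0.17 (SE, limma adjusted p = 0.489) and Prpf39, a U1-associated protein, by -0.31 ± 0.15 (adjusted p = 0.523) between 18 °C and 23 °C. Prpf8, the scaffold around the catalytic centre, was at 13.41 ± 0.05 (SD) in 10 °C, 13.30 ± 0.17 in 18 °C, 13.45 ± 0.22 in 23 °C and 13.47 ± 0.14 in 30 °C offspring. The family median was 0.002 at 10 °C and -0.03 at 18 °C relative to 23 °C.

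The hnRNP genes gave no unadjusted p under 0.05 between 10 °C and 23 °C, where 12 of 18 means were higher and the median difference was 0.06. In 18 °C offspring 13 of 18 were lower than in 23 °C (median -0.08) and 14 lower than in 30 °C offspring (median -0.11), and 15 of 18 means at 10 °C exceeded those at 18 °C (median 0.13). Hnrnpl, which binds CA-rich RNA, led the family at 18 °C. It gave 11.24, 11.53, 11.51, 11.43 and 11.68 in 18 °C offspring, 12.01, 11.55, 11.99, 12.27 and 11.85 in 23 °C offspring, and 11.96, 11.99, 11.94, 11.69 and 11.81 in 30 °C offspring. The 18 °C arrays lay below all 30 °C arrays, by a narrow margin between the nearest, and overlapped with 23 °C animal 2. The differences were -0.46 ± 0.15 (SE, limma adjusted p = 0.381) from 23 °C and -0.40 ± 0.15 (adjusted p = 0.495) from 30 °C offspring. Over 30 alternative settings the difference from 23 °C ran from -0.56 to -0.35. The smallest came from a fit with a circadian clock gene score as a covariate (limma adjusted p = 0.592).

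Hnrnpd, also known as AUF1, a regulator of RNA decay through AU-rich elements, was at 10.78 ± 0.22 (SD, n = 5) in 30 °C and 10.46 ± 0.15 in 23 °C offspring, a difference of 0.33 ± 0.14 (SE, limma adjusted p = 0.978). Hnrnpul1 was at 12.23 ± 0.10 (SD) in 10 °C and 11.92 ± 0.16 in 18 °C offspring (difference 0.31 ± 0.12, SE, limma adjusted p = 0.529). Hnrnpa0 differed by 0.39 ± 0.17 (SE, limma adjusted p = 0.584) in the same comparison, and Hnrnpu between 18 °C and 30 °C by -0.30 ± 0.15 (adjusted p = 0.608). The 2 hnRNPs with the brightest probe sets varied little: Hnrnpk group means ran from 17.23 to 17.37 and those of Hnrnpa2b1 from 15.84 to 15.94.

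**Figure D5:**
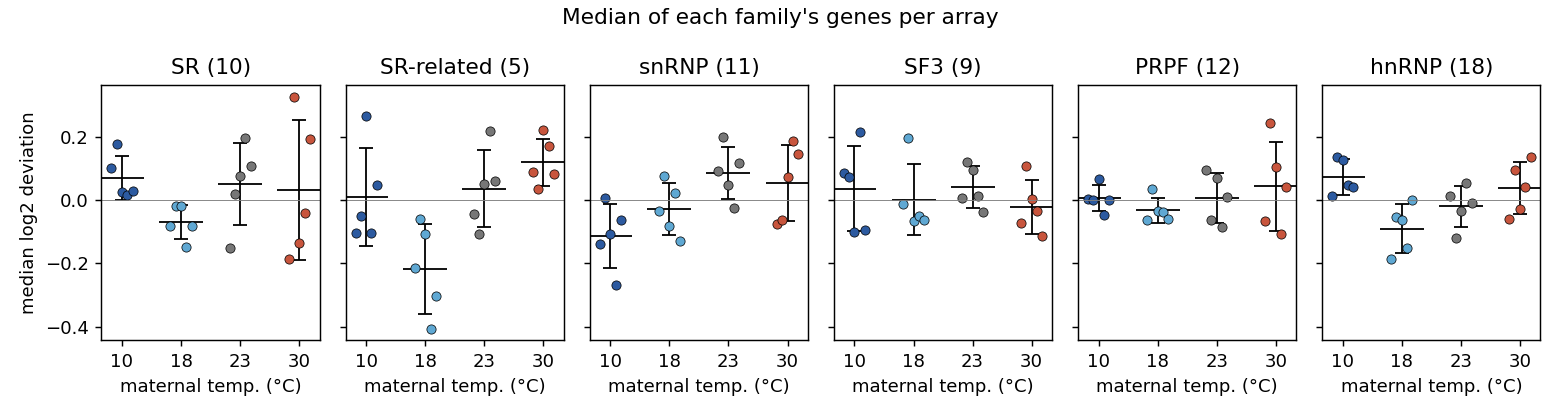
Median over the genes of each family of the log2 deviation from each gene's mean over the 20 arrays, by maternal temperature, 1 point per array, with the mean as a line and the SD as bars (n = 5 per group); the number of genes is in each title. The 18 °C arrays have the lowest mean in the SR, SR-related, PRPF and hnRNP panels, and the 10 °C arrays in the snRNP panel.

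Along maternal temperature as a number, 8 of the 65 slopes had an unadjusted limma p under 0.05, 5 positive (background 3.85%) and 3 negative (background 4.3%), against 8.15% in all, and 39 of 65 were positive. Snrpd3 had the smallest p, with 0.23 ± 0.07 log2 units per 10 °C (SE, 20 arrays, limma adjusted p = 0.444). Srsf3 followed at 0.25 ± 0.09 and Prpf31 at -0.23 ± 0.08 per 10 °C (limma adjusted p = 0.4999 for each), then Snrpe at 0.33 ± 0.13 and Snrpd2 at 0.18 ± 0.07 (adjusted p = 0.511 for each) and Snrpa1 at -0.15 ± 0.06 (adjusted p = 0.581). The Snrpe slope was 0.19 without 10 °C animal 8. All 7 Sm ring slopes were positive, with a median of 0.09 per 10 °C where the 65 genes had 0.03, which was 0.006 without 30 °C animal 5. A slope assumes an even course, which the lower 18 °C values of Pnisr, Srsf5 and Hnrnpl do not follow. In the F-test over the 4 groups, which assumes no order, 8 of the 65 genes had an unadjusted p under 0.05 (background 9.86%), led by Pnisr, Srsf5 (limma adjusted p = 0.347), Snrpd3 (0.388), Prpf31 (0.403), Hnrnpl (0.454) and Snrpd2 (0.479).

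Within groups the genes varied largely apart from each other. Over the 2080 pairs of genes the median correlation of the deviations from group means, over 20 arrays, was 0.03, and it was 0.04 within families and 0.03 between them. The Sm ring's 21 pairs had a median of 0.10 and ran from -0.47 to 0.55. The pairs most alike were Sf3b6 with Hnrnpa0 (0.75) and Srsf11 with Srrm2 (0.71), and the most opposed were Prpf18 with Prpf3 (-0.74) and Srsf4 with Snrpf (-0.74). These values describe arrays that share their normalisation, and the extremes are picked from many pairs. The largest SD within groups was that of Prpf3 (0.50 log2 units), then Snrpe (0.46), and the smallest those of Hnrnpa2b1 (0.10) and Snrpg (0.11).

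Lists of other splicing genes held 170 measured genes, and limma called 0 of them after adjustment in any comparison with 23 °C. Between 10 °C and 23 °C 21 of the 170 had an unadjusted p under 0.05 (11 higher, 10 lower), between 18 °C and 23 °C 17 (5 higher, 12 lower) and between 30 °C and 23 °C 5 (2 higher, 3 lower), which are 12.4%, 10% and 2.94%. Over all clusters these shares were 11.6%, 9.25% and 4.84%, so the counts at 10 °C and 18 °C are near the background and that at 30 °C is below it. Of the SR-like proteins 19 of 30 means were lower at 10 °C (median -0.13) and 24 of 30 at 18 °C (median -0.20) than at 23 °C. Of these 30, 6 and 4 had an unadjusted p under 0.05 (20% and 13.3%), all of them lower, where 5.91% and 4.89% of all clusters were lower. Tra2a, an activator of exon inclusion, differed by -0.87 ± 0.25 (SE, limma adjusted p = 0.188), Rnps1, which joins the exon junction complex, by -0.47 ± 0.14 (0.202) and Pnn, its partner, by -0.44 ± 0.17 (0.308) at 10 °C. At 18 °C Ccnl1, a cyclin with a role in splicing, differed by -0.68 ± 0.20 (SE, limma adjusted p = 0.338), Rnps1 by -0.40 ± 0.14 (0.395) and Son, a speckle scaffold protein, by -0.41 ± 0.14 (0.423).

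The 62 other proteins of the major snRNPs and complexes were evenly split at 10 °C, with 31 higher and 31 lower and 5 under an unadjusted 0.05 (8.07%, 4 higher and 1 lower, background 11.6%). Among them Dhx38, the helicase that readies the spliceosome for its second step, differed from 23 °C by 0.49 ± 0.15 (SE, limma adjusted p = 0.210) and Cwc27 by -0.49 ± 0.17 (0.276). Of 40 other RNA-binding regulators 5 had an unadjusted p under 0.05 at 10 °C (12.5%, 2 higher and 3 lower), near the background of 11.6%. Nono, a paraspeckle protein, differed by -0.65 ± 0.18 (SE, limma adjusted p = 0.184), and Cirbp, the cold-inducible RNA-binding protein, by 0.69 ± 0.24 (0.276). At 18 °C Nono differed by -0.57 ± 0.18 (SE, limma adjusted p = 0.370), the splicing repressor Ptbp1 by -0.67 ± 0.24 (0.419) and Rbm3, a second cold-inducible protein, by 0.44 ± 0.22 (0.559). Of the 15 measured genes of snRNP assembly, which load the Sm ring onto small nuclear RNA, 1 had an unadjusted p under 0.05 at 10 °C. At 18 °C 1 did too, so each share was 6.67%, below the 11.6% and 9.25% of all clusters. They were Gemin2, which differed by 0.61 ± 0.23 (SE, limma adjusted p = 0.300) at 10 °C, and Smn1, by -0.49 ± 0.17 (0.419) at 18 °C.

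The kinases that phosphorylate SR proteins gave 3 of 10 with an unadjusted p under 0.05 at 10 °C, all higher (background 5.73%), of which Srpk3 and Clk2 are not above background and Dyrk2 differed by 0.54 ± 0.25 (SE, limma adjusted p = 0.411). At 18 °C the kinases gave 0 of 10. The 7 measured genes of the minor spliceosome gave 0 at 10 °C, 18 °C and 30 °C. A list with 6 measured genes joined the exon junction complex with the RNA decay factors Upf1, Upf2 and Smg1. It gave Eif4a3 at 10 °C (0.31 ± 0.14, SE, limma adjusted p = 0.380) and the decay factor Upf1 at 18 °C (0.45 ± 0.16, 0.435). At 30 °C the smallest p of these lists were those of Rbm25, an SR-like protein (-0.50 ± 0.18, SE, limma adjusted p = 0.978), Xab2 (0.31 ± 0.12, 0.978) and Rnps1 (-0.36 ± 0.14, 0.978).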

How the data were processed

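Liver RNA of 20 male mice, 5 per maternal temperature, was hybridised to 1 array per mouse. The deposited table holds log2 values per probe set; the submitters' processing notes name RMA and the Transcriptome Analysis Console, with versions, settings and genome build not given in the sources used here. Quantile normalisation, a step of RMA, hides shifts of all transcripts together, and RMA compresses differences of dim probe sets. The number of arrays limits the precision.

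Of 28846 rows, 6640 control rows were left out of the tests. The other 22206 transcript clusters entered 1 model with a mean for each group over all 20 arrays (limma 3.58.1, R 4.3.3, functions lmFit and eBayes), which gave 6 pairwise comparisons and a moderated F-test; a further fit gave the slope. Tests are two-sided, with Benjamini-Hochberg adjustment over all clusters within each test and a threshold of 0.05. The script was tested on simulated data. The 65 genes and all lists were chosen with earlier results of these data known, so counts and medians over a list carry no test. All 65 symbols matched RefSeq.

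Named genes are, per comparison, up to 5 higher and 5 lower with the smallest p, 6 for the F-test and slope, the 4 brightest and 4 dimmest, those without overlap against 23 °C, and Pnisr; of other lists, the 3 with the smallest p per direction. Only some of those eligible are printed. Others, such as Srsf6, Sf3b1, Prpf8, Prpf39 and Snrpb, are printed outside this rule and were not in the single-gene alternatives or the outlier check. Some genes are also printed for comparisons in which the rule did not name them. Alternatives were a fit of 2 groups, an intensity trend, a filter at the olfactory receptor percentile, other normalisations, array weights, background and clock covariates, animal number as a block and leaving out each array.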

Additional observations from a re-analysis of the deposited data

Results flagged for a closer look

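In 176 groups of 5 arrays (the groups of single genes and of array measures), 6 had a highest or lowest array whose gap to its nearest neighbour, as a share of the range, was above Dixon's 95% value of 0.71. Chance flags about 1 in 20 such groups, so 6 is below that rate. Hnrnpa0 was at 8.998 in 10 °C animal 6, where the other 10 °C arrays gave 8.734 to 8.81. Prpf3 was at 6.484 in 18 °C animal 4, against 6.101 to 6.174. In 18 °C animal 1 Snrpg was at 8.003, against 8.156 to 8.206, and Srrm4 at 3.191, against 3.558 to 3.698 and below background in all. The median deviation of the SF3 genes was 0.197 in 18 °C animal 3, where the other 18 °C arrays lay between -0.064 and -0.011. Snrpd1 was at 5.934 in 23 °C animal 15, against 6.397 to 6.498.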

How the results depend on the processing

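Relative to the values above, the Pnisr difference between 18 °C and 23 °C offspring passed, giving 1 gene of the 65, with an intensity trend and robust prior (limma adjusted p = 0.0476), above the olfactory receptor percentile (0.0399), with arrays centred on the median of named clusters (0.0460), and without 23 °C animal 2 (0.0476) or 23 (0.0361). Counts at an unadjusted p under 0.05 moved as follows. Between 30 °C and 23 °C the 3 became 5 with the olfactory filter, 6 with a further quantile normalisation and 5 with centred arrays. With the background control level as a covariate, 13 became 6 between 10 °C and 23 °C and 6 became 3 between 10 °C and 30 °C. The count between 10 °C and 30 °C was 10 without 30 °C animals 4 and 5, a choice made after seeing the data.

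Animal numbers do not pair the samples: over 11 pairs with the same number the correlation of deviations ran from -0.151 to 0.11. With the number as a replicate block the counts were 6 between 10 °C and 23 °C, 2 between 18 °C and 23 °C, 3 between 10 °C and 30 °C and 3 between 18 °C and 30 °C. Under the block 3 differences reversed: Hnrnph3 between 18 °C and 23 °C (-0.0189 from 0.229), Hnrnpdl between 30 °C and 23 °C (-0.0888 from 0.296) and Prpf40b between 18 °C and 30 °C (-0.0474 from 0.187). Numbers 3, 15, 17 and 23 occur in only 1 array each, so the block takes up these arrays whole. The 23 °C group then rests on animals 1 and 2, and 18 °C animal 3 drops out. This fit is thus no check with all 5 arrays per group, and its part in each reversal was not tested.

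Leaving out 1 array at a time, the adjusted count for 18 °C against 23 °C was 0 to 1, and that of every other comparison 0. Unadjusted counts were 9 to 16 for 10 °C against 23 °C, 5 to 9 for 18 °C against 23 °C (5 without 23 °C animal 15 or 23), 2 to 5 for 30 °C against 23 °C (5 without 23 °C animal 2 or 23), 4 to 10 for 10 °C against 30 °C (10 without 30 °C animal 4), 5 to 12 for 18 °C against 30 °C (5 without 30 °C animal 8) and 5 to 10 for 10 °C against 18 °C. The median differences were -0.0398 to 0.0179 for 10 °C, -0.118 to -0.0566 for 18 °C and -0.00149 to 0.0490 for 30 °C against 23 °C, and the median slope was 0.00603 to 0.0418 per 10 °C. The alternative of every row of a symbol could not be run, since no gene had several.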
